A study of Drosophila melanogaster with 21 samples.

Results

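The 100 genes described here had the lowest RNA signal recovered with Topoisomerase 3 beta for their abundance in Drosophila melanogaster embryos. They were chosen from 2141 genes that were present in both deposited tables with a mean of at least 10 in each. For every gene, the mean log2 abundance in wild-type total RNA was subtracted from the mean log2 signal in RNA immunoprecipitation (RIP) of tagged protein, and the 100 lowest differences were taken. The RIP signal was summed over the transcripts listed for a gene, while abundance was counted per gene. Whether all transcripts of a gene were listed is not given in the sources used here, so a low value need not mean that less RNA was recovered. Both sides of that difference were measured values, so the low values themselves, the high wild-type abundance and the low Top3b::eGFP signal are the choice and not a finding.

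Embryos of 4 genotypes, with 3 libraries each, gave the total RNA libraries: delRGG (genotype label Top3b[delta]RGG), Y332F (Top3bY332F), Top3b26 and wild type. RIP libraries came from embryos carrying the tagged proteins Top3b::Y332F::eGFP (3 libraries) and Top3b::eGFP (6 libraries). The labels give no embryo age, no number of embryos per library and no description of how each allele or tagged line was made. They name the RIP molecule as polyA RNA and the other as total RNA, although the library protocol text is the same. No input or mock immunoprecipitation library was analysed here, so wild-type total RNA stands in for what was available to be bound.

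Topoisomerase 3 beta relaxes and unlinks strands through a tyrosine that attacks the nucleic acid backbone, and unlike most topoisomerases it acts on RNA as well as DNA. Replacing the catalytic tyrosine with phenylalanine, as the name Y332F denotes, removes the hydroxyl group that does the cutting. The arginine and glycine rich RGG region binds RNA. In flies and mammals the enzyme is known for a role in neurons and at messenger RNAs under translation, which is why the RNAs it holds have been of interest. The stated purpose of the series was to ask whether loss of the enzymatic activity burdens neurons.

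Top3beta itself (FBgn0026015) was measured first as a check of the labels. Its RNA had 122, 138 and 146 CPM (counts scaled to a common library total) in delRGG embryos, 103, 129 and 134 CPM in Y332F embryos, 19.9, 21.3 and 23.3 CPM in Top3b26 embryos, and 98.6, 127 and 129 CPM in wild-type embryos. The 3 Top3b26 libraries were thus far below the other 9, and the point mutant and the RGG deletion kept the transcript. Total counts ran from 22400118 to 31125584 per library. The later embryonic markers elav, Mhc, Act57B, Cpr49Ah and obst-E summed to 183 to 2089 CPM in delRGG, 188 to 352 CPM in Y332F, 72.6 to 226 CPM in Top3b26 and 1273 to 4402 CPM in wild type. All 5 had an entry, but Cpr49Ah reached at most 0.04 CPM in any library and obst-E at most 28.8 CPM. The sum was thus mostly that of Mhc, Act57B and elav. The 5 maternal and early markers found of 6 listed summed to 444 to 529 CPM in delRGG, 504 to 524 CPM in Y332F, 539 to 559 CPM in Top3b26 and 399 to 469 CPM in wild type. Wild-type replicate 3 and delRGG replicate 1 held the most later marker RNA of their groups. Adult male and larval markers stayed under 1 CPM in every library, and adult female markers reached 33.6 CPM in 1 Y332F library and 12.1 CPM in 1 Top3b26 library. Of the 5 later markers, Mhc and elav are themselves among the 100 genes, and in bulk RNA fewer cells of a type and less RNA per cell cannot be told apart.

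The value that ordered the genes, log2(scaled RIP signal + 1) minus log2(CPM + 1), ran from -4.40 to 0.17 over the 100 genes with a median of -0.41, against a median of 2.36 over the other 2041 ranked genes. The 2 tables were normalized separately, so the zero of this scale has no meaning and only the order was read. The 100 genes had a median RIP signal of 134 and a median abundance of 228 CPM, against 534 and 108 CPM in the other ranked genes. At the edge of the choice the differences were small: InR (insulin receptor), Pi3K21B (a phosphoinositide 3-kinase adaptor subunit) and CycA (cyclin A) were just inside at 0.16, 0.17 and 0.17, and Su(var)2-HP2, Tet and kst were just outside at 0.17, 0.18 and 0.18. The standard error of a gene's value had a median of 0.23 over the 100 genes, so the genes near the edge cannot be ordered among themselves.

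**Figure D1:**
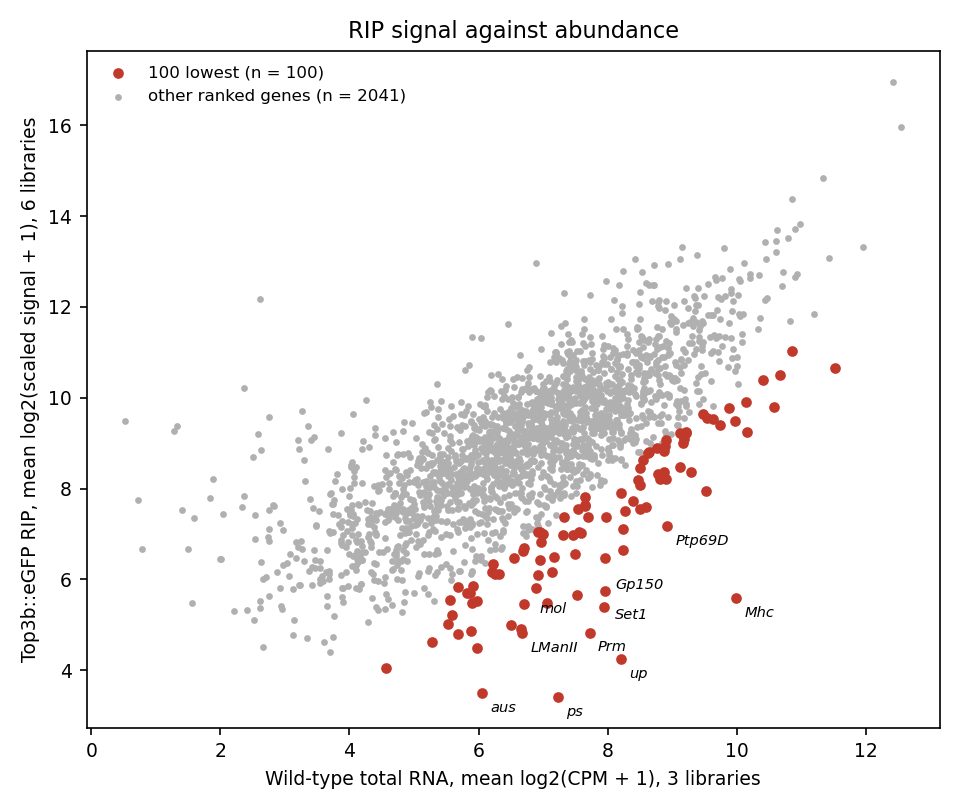
Each point is 1 of 2141 ranked genes, with mean log2(CPM + 1) over the 3 wild-type libraries on the horizontal axis and mean log2(scaled RIP signal + 1) over the 6 Top3b::eGFP libraries on the vertical axis. The 100 lowest genes (red) lie along the lower edge by construction, with Mhc, at a value of -4.40, the farthest below the other ranked genes (grey).

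Muscle genes headed the order. Of 5 ranked genes of muscle contraction, 3 were among the 100, and they were at ranks 1, 2 and 4: Mhc (muscle myosin heavy chain), up (troponin T) and Prm (paramyosin of the thick filament). Tm1 (tropomyosin) and flw (a phosphatase catalytic subunit) were the ranked muscle list genes outside, at ranks 134 and 418. With 5 ranked genes in the list, nothing is read from this count. The RIP signal of Mhc was 34.1, 37.8 and 79.8 in the Top3b::Y332F::eGFP libraries, which were not used to order the genes, and 19.97 at the lowest, 37.5 at the median and 118 at the highest in the 6 Top3b::eGFP libraries. The first 3 values lay inside the range of the other 6. For up, 28.9, 85.5 and 117 were measured in Top3b::Y332F::eGFP RIP, against 0 at the lowest, 30.3 at the median and 47.3 at the highest in Top3b::eGFP RIP. One Top3b::eGFP library listed up at 0, and the 2 groups overlapped. Prm had 39.3, 46.6 and 47.1 in Top3b::Y332F::eGFP RIP and between 16.1 and 47.4 in Top3b::eGFP RIP.

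The abundance of these muscle genes varied between libraries of 1 genotype. Mhc RNA was at 69.2, 288 and 1104 CPM in delRGG, 77.0, 135 and 138 CPM in Y332F, 31.5, 33.1 and 93.5 CPM in Top3b26, and 630.1, 896 and 1853 CPM in wild type. Mhc is itself 1 of the 5 later embryonic markers, so its level and their sum are not independent. Prm was at 13.5, 51.4 and 210.3 CPM in delRGG, 14.5, 20.4 and 24.9 CPM in Y332F, 5.88, 5.98 and 17.7 CPM in Top3b26, and 116, 184 and 431 CPM in wild type. The standard errors of the value were 0.60 for Mhc, 1.00 for up and 0.60 for Prm. The part that the age of the embryos played in these low values was not tested.

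The other 7 of the 10 lowest genes have varied roles. They were ps (pasilla, a KH-domain RNA-binding splicing regulator) at -3.82, aus at -2.56, Set1 (the histone H3 lysine 4 methyltransferase of the COMPASS complex) at -2.55, Gp150 (a leucine-rich repeat membrane protein of Notch signalling) at -2.22, mol (moladietz, a maturation factor of dual oxidase) at -1.87, LManII (a lysosomal alpha-mannosidase) at -1.86 and Ptp69D (a receptor tyrosine phosphatase of axon guidance) at -1.75. For mol and Ptp69D no total RNA comparison between genotypes was called, and for Set1 the one called was Top3b26 against wild type (log2 fold change -0.35). Ptp69D was at 491, 496 and 545 CPM in delRGG, 441, 459 and 484 CPM in Y332F, 452, 499.6 and 499.8 CPM in Top3b26, and 446, 501 and 505 CPM in wild type, and these groups overlapped. Its RIP signal was 196, 213 and 281 in Top3b::Y332F::eGFP libraries, and 86.6 at the lowest, 139 at the median and 233 at the highest in Top3b::eGFP libraries. The RIP signal of mol was 34.6, 66.6 and 68.7 in Top3b::Y332F::eGFP libraries, and ran from 12.9 to 95.5 with a median of 51.2 in Top3b::eGFP libraries, beside 168, 185 and 201 CPM in wild type. Set1 had 47.6, 90.3 and 96.4 in Top3b::Y332F::eGFP RIP and 12.5 to 184 in Top3b::eGFP RIP. Its median there was 49.5, and its total RNA in wild type was 226, 228 and 291 CPM. In each of these 3 genes the RIP values of the 2 proteins overlapped. LManII, a marker in the gut list, stood at 50.8, 51.6 and 52.5 CPM in delRGG, 51.6, 53.2 and 60.4 CPM in Y332F, 30.4, 39.5 and 43.0 CPM in Top3b26, and 88.6, 89.6 and 130 CPM in wild type, with every mutant library below every wild-type library. The genes ps and aus were each listed at 0 in 1 Top3b::eGFP library and reached at most 30.6 and 32.1 there.

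**Figure D2:**
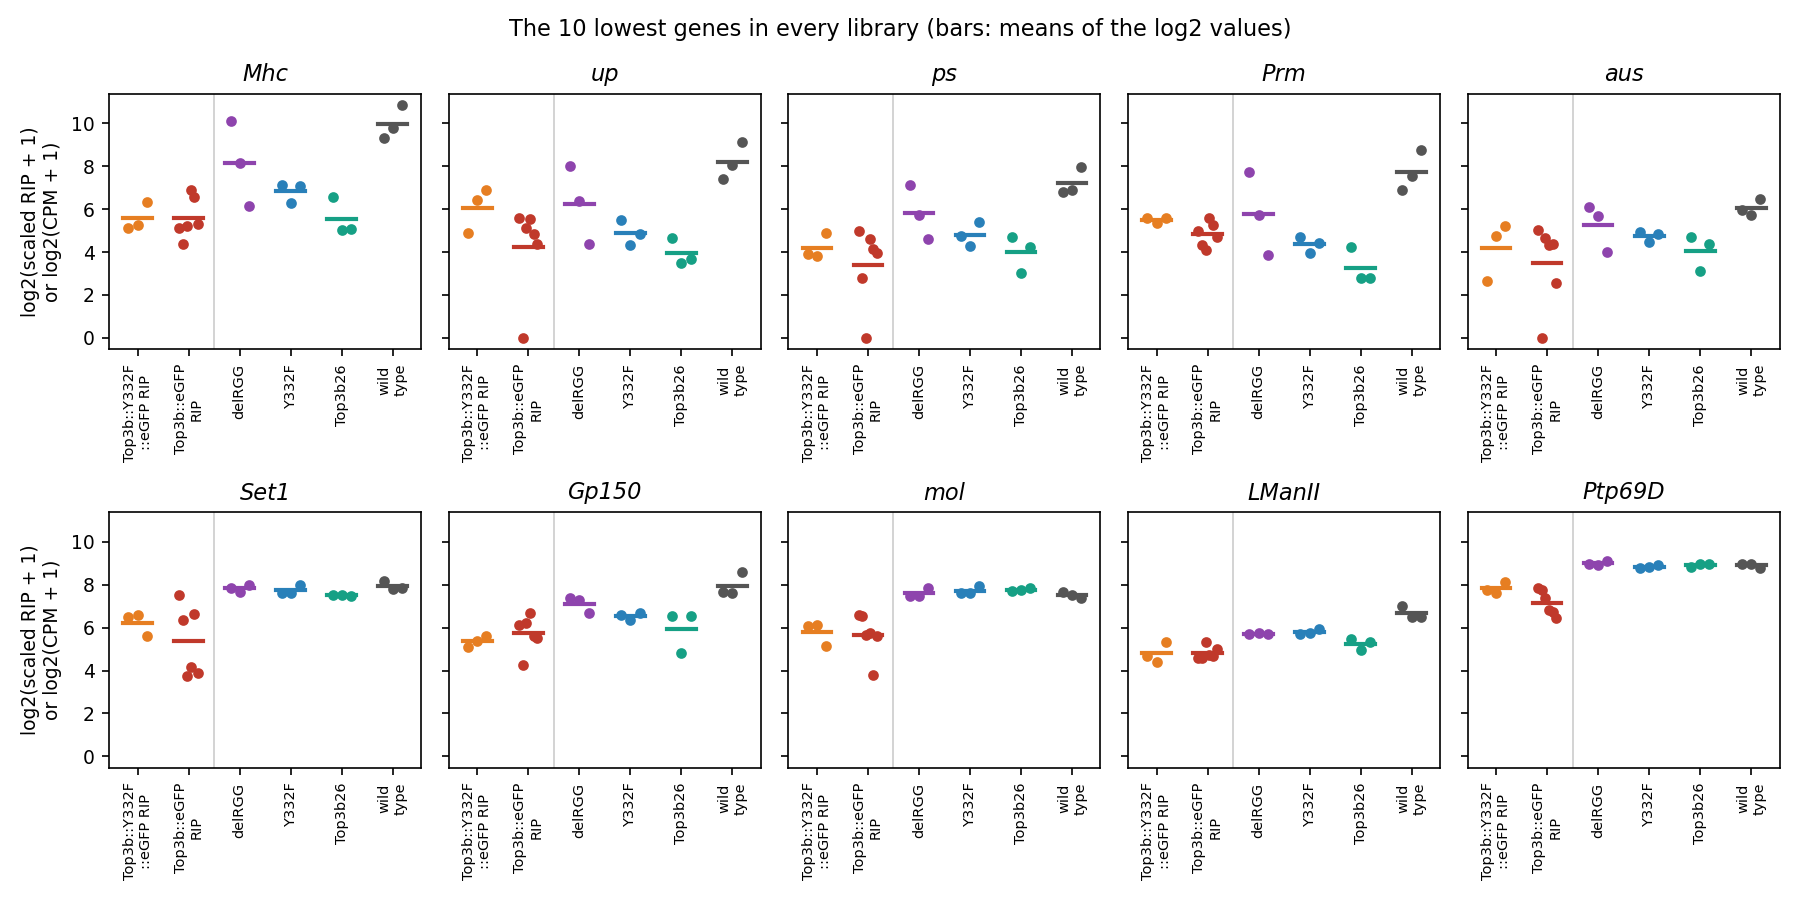
Every point is 1 library, on log2(scaled RIP signal + 1) left of the grey line and log2(CPM + 1) right of it, for the 10 genes with the lowest values, and bars are means of the log2 values. Mhc, up, ps and Prm had their highest total RNA in wild type and in delRGG replicate 1, whereas Set1, mol and Ptp69D varied little across the 4 genotypes.

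Genes of neurons and of axon guidance were also among the 100. Of 3 ranked genes in the neuronal and synaptic list, elav (a neuron-specific RNA-binding protein) and unc-13 (a synaptic vesicle priming factor) were members, and Csp was not. With 3 ranked genes, nothing is read from this count either. In a list of guidance and adhesion genes drawn up after the 100 were known, 10 of 22 ranked genes were members: the phosphatase Ptp69D, the adhesion molecules Nrg, ed and sdk, the semaphorins Sema2a and Sema1a, the Robo ligand sli, the netrin receptor fra, the Eph receptor and the protease kuz. All ranked genes had a 4.67% share of members by construction. The signal of sli was 42.1, 54.2 and 83.7 in Top3b::Y332F::eGFP RIP, and 54.8 at the lowest, 107 at the median and 130.1 at the highest in Top3b::eGFP RIP. Sema2a had 226, 226.5 and 302 in Top3b::Y332F::eGFP RIP and 156 to 239 in Top3b::eGFP RIP. In both genes the RIP groups overlapped. Because the list was written with the members in view, its share is a description only.

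Chromatin regulators and large scaffold proteins were represented too. From a list of large cytoskeletal linkers and chromatin regulators, 4 of 15 ranked genes were members: Nipped-B (the cohesin loader), kis (a chromodomain helicase), shot (a spectraplakin that joins actin to microtubules) and brm (the ATPase of the Brahma remodelling complex). A broader chromatin list, also drawn up after the members were known, had 11 of 40, adding Set1, E(bx), Mi-2, spen, Spt6, Taf1, Gug and tna, and lacked shot. A polarity and membrane scaffold list of the same kind had 9 of 22, among them scrib, dlg1, Dys and Fak. Some of these genes had a high RIP signal all the same. For kis and E(bx), Top3b::eGFP RIP signal and wild-type abundance were each above the median of the other ranked genes (534 and 108 CPM). RIP signal and CPM are on separate scales and were not compared with each other. The signal of kis was 632, 808 and 1126 in Top3b::Y332F::eGFP RIP, and 1101 at the lowest, 1787 at the median and 2235 at the highest in Top3b::eGFP RIP. Its total RNA was 3247, 3652 and 4338 CPM in delRGG, 3375, 3455 and 3581 CPM in Y332F, 3107, 3370.2 and 3450.4 CPM in Top3b26, and 2210.1, 2902 and 3973 CPM in wild type, and these groups overlapped. E(bx) had 636, 781 and 969.6 in Top3b::Y332F::eGFP RIP, and 661, 943 and 1035 at the lowest, median and highest in Top3b::eGFP RIP, beside 1414, 1581 and 1624 CPM in wild type.

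Several lists held 0 or 1 member, beside 4.67% of all ranked genes. None of 30 ranked cytosolic ribosomal protein genes, 10 mitochondrial ribosomal protein genes, 33 respiratory chain and ATP synthase genes or 20 translation factor genes was among the 100. The lowest values in those lists were 1.73, 2.38, 1.15 and 0.80. The germ plasm and maternal axis list had 0 of 8 and the splicing protein list 0 of 10. The small GTPase and vesicle list had 1 of 18, Arf1, the cell cycle list 1 of 16, CycA, and the vacuolar ATPase list 1 of 5, Vha16-1. With so few ranked genes in each list, nothing is read from these counts. Genes measured in the RIP table each had at least 2 transcripts there, so a gene with a single transcript could not enter any of these counts.

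The same value was next computed from libraries that were not used to order the genes, as Top3b::Y332F::eGFP RIP minus Y332F total RNA. Those RIP libraries did enter the filter on the mean RIP signal and the scaling factors. By this value, 57 of the 100 genes were again among the 100 lowest, 72 among the 200 lowest and 91 among the 500 lowest, against 2.11%, 6.27% and 20.04% of the other ranked genes. The lower 1070 genes held 98 of the 100. With Top3b26 total RNA in place of Y332F the 100 lowest held 57, and with delRGG total RNA they held 64. Single Top3b::Y332F::eGFP libraries against Y332F total RNA had 58, 58 and 49 of the 100. Across the 2141 ranked genes Spearman's rho between the 2 values was 0.80, and across the 100 genes it was 0.28. The points share the transcripts that were summed, the gene's length and the counting, and both are descriptions.

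The order of the genes was not the same in the unused libraries. There kis was at rank 1, mol at 2, shot at 3, tweek (a very large protein of synaptic vesicle recycling) at 4, scrib (a septate junction scaffold) at 5 and Set1 at 7, and Mhc was at 11. The muscle genes up and Prm were at ranks 362 and 349, and the neuronal genes elav and unc-13 at 106 and 51. The 5 genes that moved the most were CG43897, at rank 1957 in the unused libraries, Galphas (a stimulatory G protein subunit) at 1173, HmgZ (a high mobility group protein) at 957, a gene with no symbol in the supplied table at 814, and vig, a gene named for vasa intronic gene, at 708. For CG43897 the total RNA was 8.30, 12.9 and 13.7 CPM in Y332F, against 68.1, 105 and 257 CPM in wild type. Its RIP signal was 120.5, 160.4 and 239 with Top3b::Y332F::eGFP, and 37.4 to 164 with Top3b::eGFP. Galphas had 85.5, 85.9 and 97.3 in Top3b::Y332F::eGFP RIP, above the 0 to 78.7 of Top3b::eGFP RIP, and 12.9, 17.8 and 19.1 CPM in Y332F, against 27.9, 36.5 and 53.2 CPM in wild type. The 0 was listed in 1 Top3b::eGFP library, and the others had 19.5 or more. That 0 entered the mean that ranked Galphas, and the standard error of its value was 1.01.

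**Figure D3:**
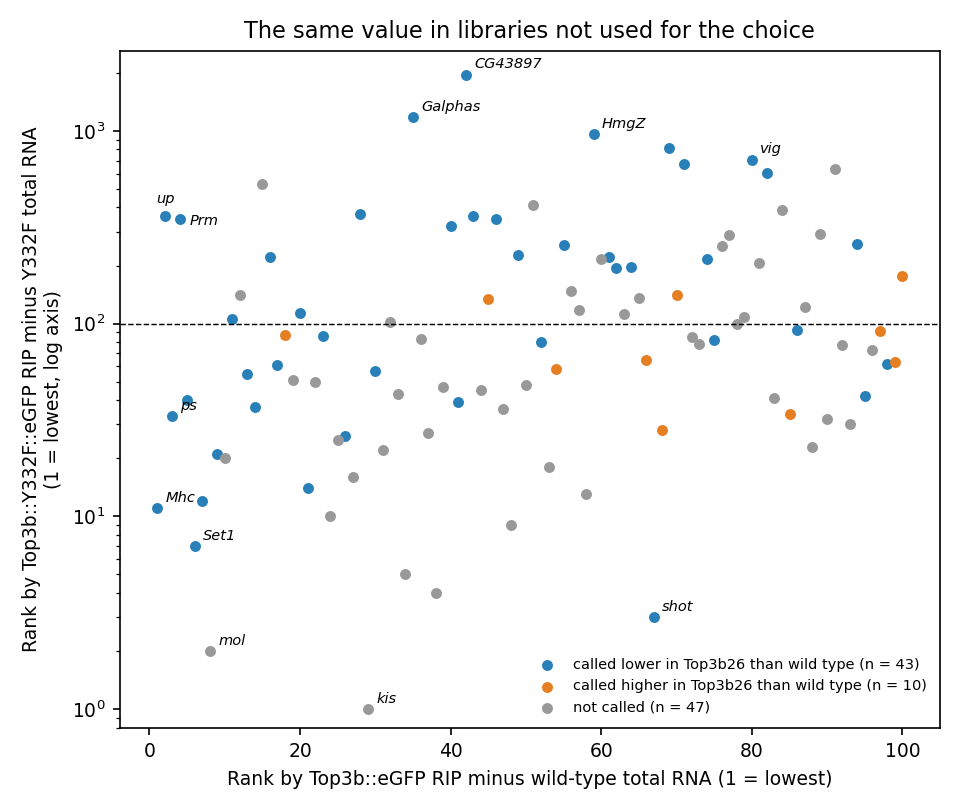
Each point is 1 of the 100 genes, placed by its rank in the choice (horizontal) and by its rank in Top3b::Y332F::eGFP RIP minus Y332F total RNA (vertical, log axis), among 2141 genes. The 57 genes on or under the dashed line were among the 100 lowest in both, and colour marks genes called in Top3b26 against wild-type total RNA.

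The 100 genes were longer than the other ranked genes. The span from the first to the last base of the gene, introns included, had a median of 13.99 kb over 99 of the 100 genes and 4.796 kb over the 2033 others with a span. Of the 99 genes, 65 (65.7%) spanned 10 kb or more, against 26.9% of the others. The longest were Dys (dystrophin) at 136 kb, AGO3 (an Argonaute of the piRNA pathway) at 135 kb and hth (a homeodomain partner of Hox proteins) at 132 kb, and the shortest were Psn (presenilin) at 2.69 kb, CG10417 at 2.77 kb and c(3)G (a synaptonemal complex protein) at 3.11 kb. None of 386 ranked genes under 2 kb was a member, while 14 of 92 genes of 50 kb or more were (15.2%). Across 2132 genes, Spearman's rho between span and value was -0.39. Between abundance and value it was also -0.39, but abundance is part of the value. In the unused libraries the median value likewise fell with span, to 1.27 at 50 kb or more, against 3.07 under 2 kb. The span is that of the gene and not of the RNA, and whether transcript length entered the deposited RIP normalization is not given in the sources used here, while CPM holds no length correction. The part of length in these values was not tested.

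Chromosome 4, the smallest, supplied more of the 100 genes than any other per ranked gene. Of its 35 ranked genes, 10 were members (28.6%), against 2.41% of those on X and 3.29% to 6.36% on the arms of chromosomes 2 and 3. They were the calcium pump PMCA, unc-13, the zinc finger homeodomain gene zfh2, Eph, the cadherin-like Cals, pan (the transcription factor TCF), Gyf, the TGF-beta family ligand myo, the ankyrin Ank and the zyxin gene Zyx. The median value of chromosome 4 genes was 0.67, against 2.26 to 2.43 on the other arms. Genes elsewhere with a span between 5.50 and 16.04 kb, the middle range of chromosome 4, had a median of 2.08 and 5.14% were members. The chromosome 4 figures cover all 35 genes, also those outside this range, such as PMCA at 30.7 kb and unc-13 at 44.5 kb. The sets were thus not matched for span, and the part of span was not tested. In the unused libraries the chromosome 4 median was 1.54, against 2.22 to 2.35 on the other arms. There 2 of its 35 genes, PMCA and unc-13, were among the 100 lowest, a share near the 4.67% of all ranked genes. Ranked by the residual from a linear fit, 4 of the 35 were among the 100 lowest in the unused libraries, against 10 in the libraries that chose the genes. The count was thus smaller there under both rankings, and the chromosome's median was below the other medians in both.

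**Figure D4:**
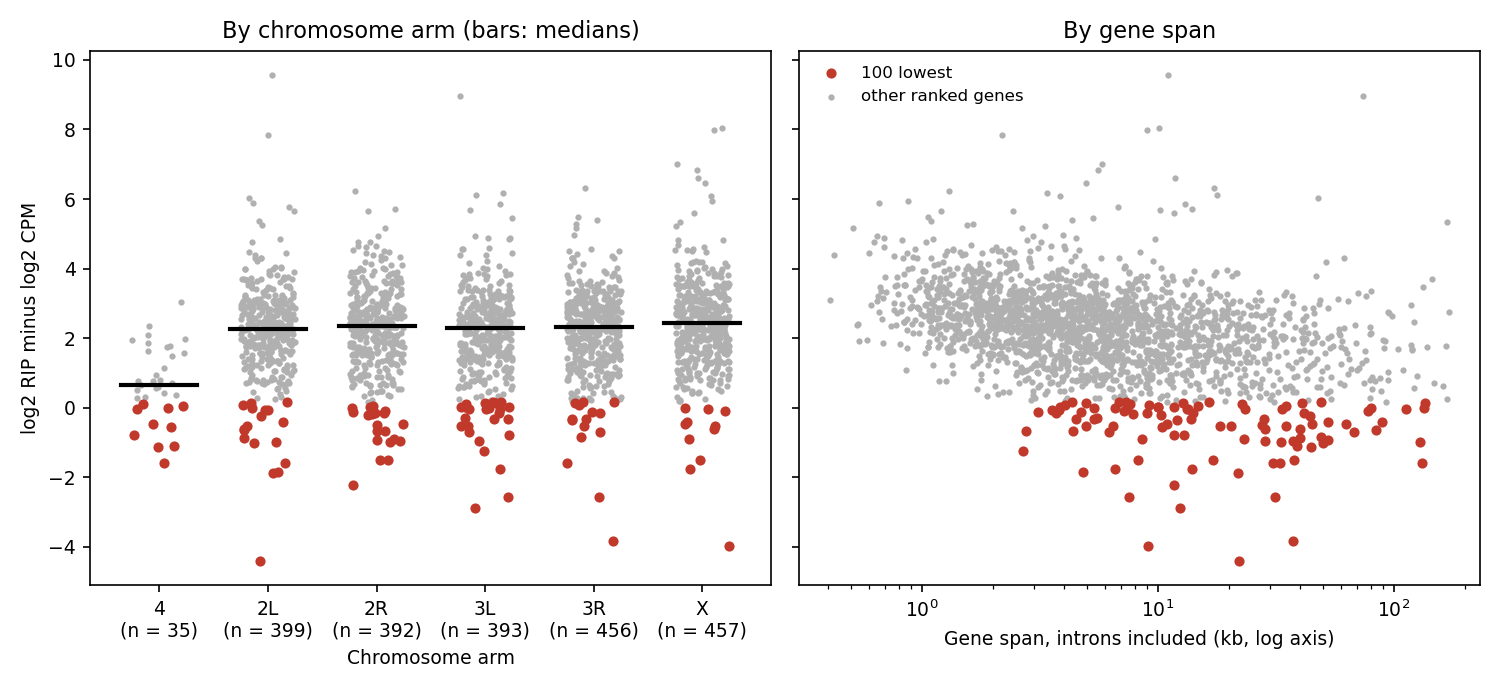
The value of every ranked gene with a known position, log2 RIP minus log2 CPM, is plotted by chromosome arm (left, bars are medians) and by gene span on a log axis (right), with the 100 lowest genes in red. The bar of chromosome 4 lies at 0.67 and the other bars between 2.26 and 2.43, and no red point lies under 2 kb.

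Between the mutants, whose libraries had no part in the choice, the total RNA of the 100 genes was tested with edgeR's quasi-likelihood test, and a gene was called at a Benjamini-Hochberg adjusted p under 0.05 over 10238 features. In Y332F against Top3b26, 4 of the 100 were called (1 higher and 3 lower), against 7.27% of all tested features and 8.69% of ranked genes. The share was no larger than the background. The cytoskeletal linker pigs (a Gas2 family protein) fell to 15.4, 16.8 and 18.8 CPM in Y332F, against 46.0, 46.0 and 52.6 CPM in Top3b26 (log2 fold change -1.51, SE 0.21, adjusted p 0.00102, lower in 3 of 3 libraries). It was also the single gene called in delRGG against Y332F, where 2.46% of features and 2.48% of ranked genes were called. There pigs had 27.0, 40.9 and 52.4 CPM in delRGG and 15.4, 16.8 and 18.8 CPM in Y332F (log2 fold change 1.19, SE 0.21, adjusted p 0.0109). All 3 Y332F libraries lay below all libraries of the other 3 genotypes, wild type included at 51.4, 53.8 and 73.2 CPM. The RIP signal of pigs was 34.7, 42.0 and 53.3 in Top3b::Y332F::eGFP libraries and 26.3 to 55.8 in Top3b::eGFP libraries, and these overlapped.

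Small changes made up the rest of the calls in Y332F. The prominin-like membrane protein gene promL rose to 192, 195 and 201 CPM in Y332F, against 148, 157 and 160 CPM in Top3b26 (log2 fold change 0.33, SE 0.06, adjusted p 0.0079). Acer, an angiotensin-converting enzyme relative, fell to 79.8, 82.5 and 85.6 CPM in Y332F, against 95.6, 98.2 and 111 CPM in Top3b26 (log2 fold change -0.31, adjusted p 0.0341). Bsg (basigin, an immunoglobulin family membrane protein) fell to 217, 219.7 and 239 CPM in Y332F, against 261, 270.1 and 275 CPM in Top3b26 (log2 fold change -0.27, adjusted p 0.0444). None of these groups overlapped. The same 3 genes were called in the same direction in delRGG against Top3b26, a comparison that shares the Top3b26 libraries. Without any 1 of 5 of the 6 libraries, 2 of the 100 were called in Y332F against Top3b26, and 3 without Top3b26 replicate 1.

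In delRGG against Top3b26, 28 of the 100 were called, 24 higher and 4 lower, against 28.3% of all tested features (17.3% higher, 10.9% lower) and 21.5% of ranked genes (6.54% higher, 14.9% lower). The median log2 fold change was 0.11 over the 100, against 0.03 over all tested features and -0.09 over ranked genes. The 5 largest rises without overlap were those of zfh2, hth, pan, Cdep and tna. The gene zfh2 had 34.4, 71.8 and 84.9 CPM in delRGG, against 7.63, 23.3 and 31.2 CPM in Top3b26 (log2 fold change 1.56, SE 0.47, adjusted p 0.0327). The Hox partner hth had 79.4, 98.2 and 103 CPM in delRGG, against 14.3, 46.0 and 48.7 CPM in Top3b26 (log2 fold change 1.31, SE 0.37, adjusted p 0.0266). Likewise pan, the nuclear end of Wnt signalling, had 40.9, 41.2 and 44.3 CPM in delRGG, against 14.1, 22.4 and 25.5 CPM in Top3b26 (log2 fold change 0.98, adjusted p 0.0246). The FERM and RhoGEF domain gene Cdep was at 1.39 and tna at 1.22. Larger fitted rises belonged to the muscle genes Mhc and Prm, both at 3.15, up at 2.89, CG43897 at 2.88 and ps at 2.03, and in these the groups overlapped.

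The 4 genes that fell in delRGG against Top3b26 changed little. They were Acer at -0.36, the kinesin-like gene Klp31E at -0.35, Bsg at -0.23 and Eato (an ABC transporter) at -0.18, all without overlap. Klp31E had 58.3, 60.9 and 61.2 CPM in delRGG, against 67.5, 74.998 and 78.7 CPM in Top3b26 (adjusted p 0.0264). The counts rested on few libraries. Without delRGG replicate 1, the library richest in later markers in its group, 6 of the 100 were called, and without delRGG replicate 2, 12. Without Top3b26 replicate 2 or 3 the counts were 6 and 5, and without delRGG replicate 3 the count was 44. The later marker sum was 183 to 2089 CPM in delRGG and 72.6 to 226 CPM in Top3b26. Over the whole muscle list, 18 of 24 tested genes rose and 0 fell in this comparison, and in the neuronal list 17 of 21 rose and 1 fell. In the list of large linkers and chromatin regulators 0 of 24 were called by this test, with a median log2 fold change of 0.06. How far the stage of the embryos entered the 24 rises was not tested.

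**Figure D5:**
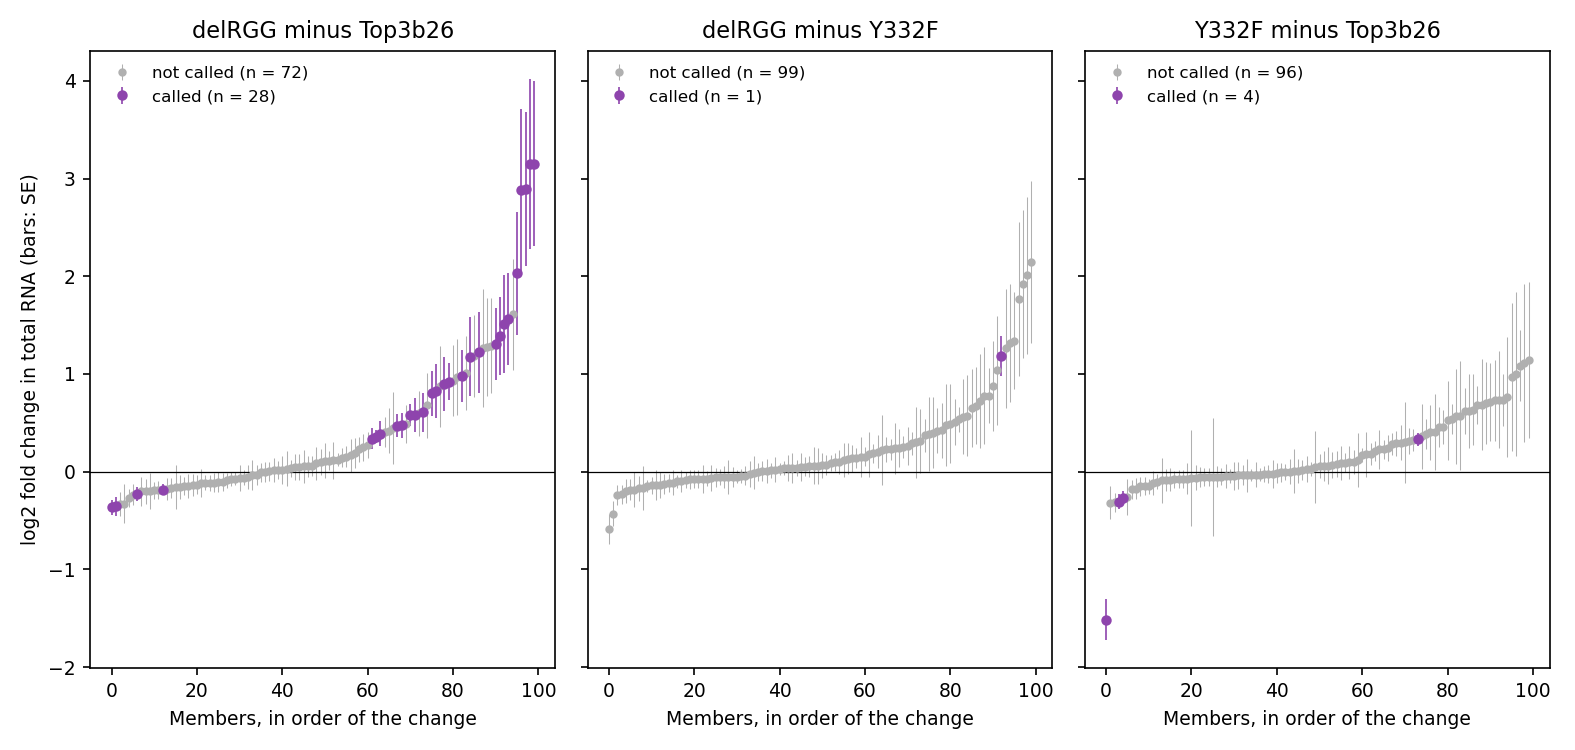
Each panel orders the 100 genes by their log2 fold change in total RNA between 2 mutants, with bars of 1 standard error, and called genes are in purple. There were 28 calls in delRGG minus Top3b26, 1 in delRGG minus Y332F and 4 in Y332F minus Top3b26, where pigs lies alone at -1.51.

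Differences from wild type use the libraries that chose the genes, so they are given as a description. In Top3b26 against wild type 53 of the 100 were called, 10 higher and 43 lower, beside 57.1% of all features (23.5% higher, 33.7% lower) and 44.7% of ranked genes (32.6% higher, 12.1% lower). In Y332F against wild type 39 were called, 6 higher and 33 lower, beside 43.5% of all features (15.3% higher, 28.2% lower) and 32.3% of ranked genes (23.3% higher, 8.97% lower). In delRGG against wild type 6 were called, all lower, beside 5.87% of all features (2.7% lower) and 7.52% of ranked genes (3.32% lower). Wild-type abundance entered the choice, so nothing is read from these counts. The 43 genes lower in Top3b26 included 16 of the 25 lowest of the 100. Among the 100 lowest in the unused libraries were 20 of these 43, 7 of the 10 that were higher and 30 of the 47 that were not called, a split that uses the same wild-type values as the choice. The falls with the largest size and no overlap were CG43897, Prm and up in both Top3b26 (-4.65, -4.53 and -4.33) and Y332F (-3.54, -3.53 and -3.37), and LManII, CG14073 and unc-13 in delRGG (-0.96, -0.68 and -0.60). The translation-linked RNA-binding protein gene Larp4B was the largest such rise, at 818, 828 and 865 CPM in Y332F and 775.7, 793 and 835 CPM in Top3b26, against 546, 614 and 630.0 CPM in wild type. Together the 100 genes took 8.07% to 8.83% of the CPM of ranked genes in delRGG, 7.72% to 7.94% in Y332F, 7.47% to 7.66% in Top3b26 and 8.54% to 9.33% in wild type.

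The RIP signal of Top3b::Y332F::eGFP was set beside that of Top3b::eGFP in the same way, since the Top3b::eGFP libraries also chose the genes. With limma on log2(scaled signal + 1), 23 of the 100 were called, 13 higher and 10 lower, beside 29.8% of all 2168 genes (13% higher, 16.7% lower). With all libraries scaled by column sums instead, 23 were called, 16 higher and 7 lower, and without scaling 3 were called, 2 higher and 1 lower. For shot the signal was 138, 160.4 and 197 in Top3b::Y332F::eGFP libraries, and 364 at the lowest, 827 at the median and 1351 at the highest in Top3b::eGFP libraries, a log2 difference of -2.18. The differences of tweek and of Unr (a cold-shock domain regulator of translation) were -1.20 and -1.01, without overlap. Those of spen, kis, Taf1 and scrib were -1.01, -0.97, -0.82 and -0.79, and in kis, Taf1 and scrib the groups overlapped. The higher ones included Bsg at 1.62, with 266, 297 and 367 in Top3b::Y332F::eGFP libraries and 23.5, 103 and 220 at the lowest, median and highest in Top3b::eGFP libraries. Arf1, a small GTPase of vesicle budding, and Zyx, a focal adhesion protein of the polarity and scaffold list that also holds shot and scrib, were at 1.03 and 1.02. Without Top3b::eGFP replicate 6 and Top3b::Y332F::eGFP replicate 3, whose columns follow another naming series, 20 were called, 4 higher and 16 lower. Without Top3b::Y332F::eGFP replicate 2 the count was 11.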

How the data were processed

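The total RNA table deposited by the authors holds counts, whole and not normalized. The RIP table that the authors deposited holds a signal for each transcript that was already normalized; the method, the reads behind it and any length correction are not given in the sources used here. Per the labels' protocols, libraries were made with a Lexogen CORALL kit and sequenced as read pairs. The submitters' processing notes name bcl2fastq, HISAT2, featureCounts and DESeq2, with no role or version. Strand setting and genome build are not given in the sources used here, so overlapping genes are uncertain and no coordinates are given.

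The 4928 RIP transcripts were summed over 2168 genes and libraries were brought to one scale by median ratios (factors 0.60 to 1.67). There were 3 RIP columns with no matching sample, and they were left out. The columns of 3 samples (Top3b::eGFP replicates 3 and 6, Top3b::Y332F::eGFP replicate 3) were assigned by number and elimination. Library sums of the RIP signal ran from 1414940 to 3429210. CPM used plain library totals, and the pseudocount was 1.

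For the total RNA tests, edgeR 4.0.16 was run under R 4.3.3 (filterByExpr with a minimum count of 10, TMM, quasi-likelihood, all 12 libraries, genotype as the factor), and for RIP limma 3.58.1 (trend); p-values were adjusted by Benjamini-Hochberg over all features. RIP fold changes are on the log2(value + 1) scale. The added 1 understates those of low genes, whereas a library listed at 0, as for Galphas, pulls the mean of its group down strongly. All 100 genes passed the filters. Nothing in the labels says that replicates came from separate collections, so p-values measure only the spread between these libraries, which may be technical. On simulated data with 200 changed features, edgeR found 171 of them with 8 false calls for Y332F against Top3b26 among 9949 features, and limma found 197 with 18 false calls among 2168 RIP genes. In each simulation all features had the same spread and all changes the same size. The SD of the log2 RIP signal of the 100 genes ran from 0.16 to 3.35, so these figures do not carry over to them.

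The 100 genes and the lists were chosen with earlier results of these data known. Named genes follow a rule: the 10 lowest, the 3 on each side of the edge, the largest called changes without overlap (up to 5 each way between mutants, 3 each way otherwise), list members, the 5 largest shifts of rank and the 3 longest and shortest; others were named after their values were seen. Symbols and spans came from supplied FlyBase and RefSeq tables (assembly Release 6 plus ISO1 MT), with both for 99 of the 100. Alternatives were DESeq2 1.42.0, other filters, scalings and pseudocounts, a replicate block, the compared groups alone and each library left out.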

Additional observations from a re-analysis of the deposited data

How the results depend on the processing

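The count of the 100 genes called in Y332F against Top3b26 was 4. It was 9 with DESeq2, 2 with no filter, 2 with a mean of at least 50 counts, 8 with the compared groups fitted alone, and 2 to 3 with each library left out. In delRGG against Top3b26 the 28 became 9 with the compared groups alone and 5 to 44 with each library left out. In delRGG against Y332F the 1 became 5 with DESeq2, 2 with a mean of at least 50 counts and 0 to 11 with each library left out. The 0 came without Y332F replicate 2, by edgeR, where 5 genes had an unadjusted p under 0.05, and the 11 without delRGG replicate 3. In delRGG against wild type the 6 became 10 with DESeq2, 2 with no filter, 3 to 13 with each library left out, and 0 by edgeR with the compared groups alone, where 20 had an unadjusted p under 0.05. In Y332F against wild type the 39 became 10 to 37 with each library left out, with 15 without wild-type replicate 3 and 18 and 10 without Y332F replicates 1 and 2. In Top3b26 against wild type the range was 41 to 52. For RIP the 23 became 3 without scaling and 11 to 31 with each library left out. Fewer samples entered the fits of compared groups alone and those with a library left out; for the other settings the cause was not tested.

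Pairing of the libraries by replicate number was not seen, in that no comparison had a correlation above 0.1 in every same-numbered pair. The correlations, of deviations from group means, were 0.19, 0.39 and 0.05 for Y332F with Top3b26 and -0.65, -0.21 and -0.65 for delRGG with wild type. With 3 libraries per group they cannot settle whether libraries were paired. With the replicate block the counts were 7 in Y332F against Top3b26, 30 in delRGG against Top3b26, 2 in delRGG against Y332F, and 60, 45 and 6 in Top3b26, Y332F and delRGG against wild type. In RIP the block was fitted on the 3 same-numbered pairs alone and gave 8. The Top3b::eGFP libraries without a same-numbered partner were left out, so fewer libraries entered that fit.

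Of the 100 genes, 72 to 100 were kept in the 100 lowest under other rankings: 72 by the residual from a linear fit (slope 0.69), 75 by the mean over transcripts, 84 by the highest transcript, 87 with a mean of at least 50, and 93 to 97 with each library left out. In the unused libraries the 57 became 47 to 59 under other rankings and 56 to 60 with each library left out. Of 450 values of named genes under alternatives, 350 kept direction and call, 100 kept direction and lost the call, and 0 reversed. The reads behind the RIP signal are unknown, so low RIP values such as those of ps and aus carry no counting error here.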

Other observations

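Transcript makeup is given here as values, with no test. The largest transcript took a median of 61.2% of a gene's RIP signal in Top3b::eGFP libraries, against 68.1% in the other ranked genes, and 32% of the 100 genes had 3 or more transcripts in the table, against 22.0% of the others. A gene with more transcripts can have a smaller largest share, and the shares were not compared at equal numbers of transcripts. The scaffold gene dlg1 (discs large, a septate junction protein) had 7 transcripts and Nipped-B had 5. In Cep164, a gene named for a centrosomal protein, transcript FBtr0074153 was the one with signal in all 3 Top3b::Y332F::eGFP libraries (17.6, 35.5 and 55.0), and it was above 0 in 2 of 6 Top3b::eGFP libraries. The other, FBtr0074154, was listed at 0 in all 3 Top3b::Y332F::eGFP libraries and above 0 in 4 of 6 Top3b::eGFP libraries (15.8 to 49.0). Over the 5 Top3b::eGFP libraries with any Cep164 signal, its share averaged 75.9% ± 43.3 (SD). Cep164 was chosen after its values were seen, the signals are low, and a transcript listed at 0 can be a failed estimate, so this is given as values with no test.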
